A study of Homo sapiens with 4 samples.

Results

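The genes described here carry the signal of interferons from the cell surface to the nucleus: the kinases JAK1 and JAK2, the transcription factors STAT2, IRF1, IRF2, IRF7, IRF8 and IRF9, and the feedback inhibitor SOCS1. They were chosen by name, with earlier results of these data known, as 9 of the 26475 gene symbols listed in the count tables. Of these 9 genes, 8 had at least 10 reads in at least 1 library. RNA was measured in mammospheres, which are spheres that grow from single cells without attachment, made from MDA-MB-468 cells, a long-established line of triple-negative breast cancer. By the study's methods the cells carry Cas9 and a guide whose expression is induced by doxycycline, and were sorted by the fluorescent proteins that mark both. The 4 groups have 1 library each. Cells with the control in place of a TCOF1 guide were untreated (CTL) or given doxycycline (CTL+dox). Cells with the TCOF1 guide gRNA2 were untreated (gRNA2) or given doxycycline (gRNA2+dox). In the study's methods doxycycline induces the TCOF1 knockout, here in gRNA2+dox. By those methods there were no biological replicates, so no value below has one. Values in 4 libraries are given in the order CTL, CTL+dox, gRNA2, gRNA2+dox unless a library is named, and each interval is a 95% interval that covers counting error only and compares libraries, not conditions.

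Interferons of type I (alpha and beta), type II (gamma) and type III (lambda) bind receptor pairs whose tails hold Janus kinases. The active kinases phosphorylate STAT proteins. STAT dimers bind the GAS element, and the complex ISGF3, which contains STAT2 and IRF9, binds the ISRE element. IRF1 and IRF7 carry the response on to further genes, IRF2 competes with IRF1 for the same sites, and SOCS1 binds the kinases and shuts the signal off. Several of these genes, among them STAT2, IRF1, IRF7, IRF9 and SOCS1, are themselves known to be induced by interferon.

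Reads on genes summed to between 19960644 and 26322847 per library, and reads set aside as ambiguous between overlapping genes were 2.09% to 2.17% of a library. Levels are in CPM, counts scaled to a common library total, after TMM scaling, which removes differences in library size and composition. TCOF1, the targeted gene, had 1019, 754, 1318 and 437 reads. Its log2 ratio was -1.34 for gRNA2+dox against gRNA2 and -0.58 for CTL+dox against CTL, so the doxycycline-treated control also had a lower level than its untreated partner. All 12 epithelial markers looked for were present, with a summed level between 27382 and 29683 CPM. Of 17 markers of white blood cells, 4 reached 10 reads in any library and 3 (CD3D, TYROBP and NKG7) had 0 reads in each library, while PTPRC had at most 2 reads. Their summed level was 67.3, 70.0, 72.6 and 74.9 CPM, a little higher in gRNA2+dox than elsewhere, and its part in the results was not tested. All but 6.41 to 7.65 CPM of it lay on CSF1R and CD14, a split made after the values were seen. In bulk RNA, fewer cells with a transcript and less of it per cell cannot be told apart.

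IRF1, STAT2, IRF7, IRF9 and SOCS1 each had their highest level in gRNA2+dox, above each of the 3 other libraries with intervals that did not overlap. The gap was narrowest for SOCS1, whose lower bound in gRNA2+dox and upper bound in CTL+dox both round to 39.1 CPM. IRF2 in gRNA2+dox differed from gRNA2 by less than the counting error, the kinases JAK1 and JAK2 differed by at most 0.15 on the log2 scale between gRNA2+dox and any other library, and IRF8 had no read. A log2 ratio past 0.5 in size, 1.41-fold, was used to count genes as higher or lower.

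**Figure D1:**
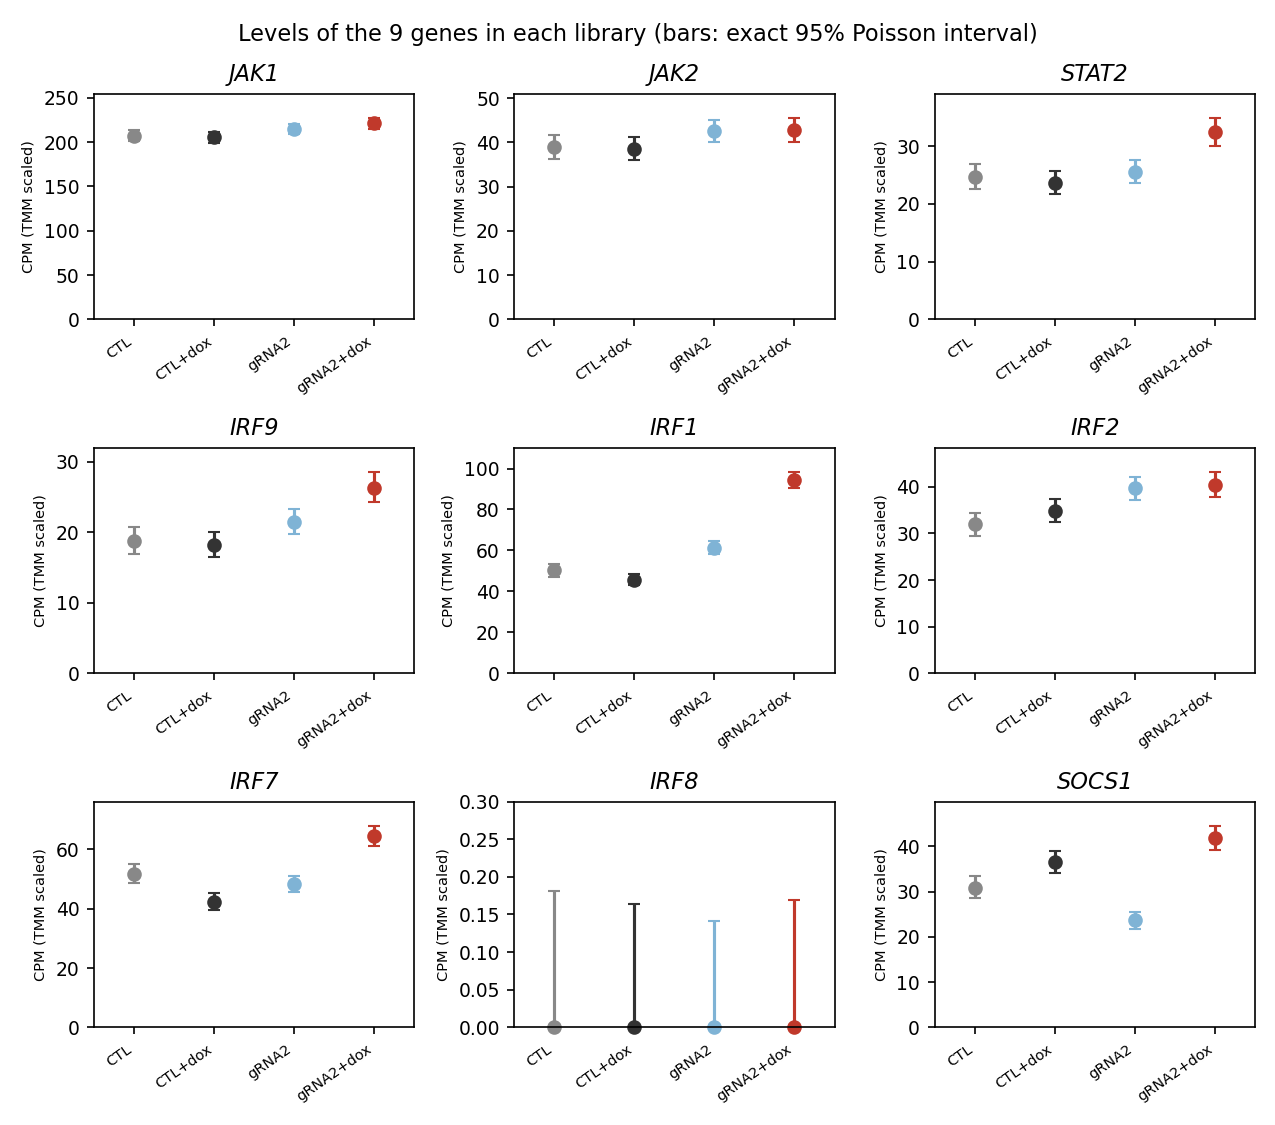
Level of each of the 9 genes in the 4 libraries, in CPM after TMM scaling on a linear axis that starts at 0. Points are single libraries and bars are exact 95% Poisson intervals. IRF1, STAT2, IRF7, IRF9 and, by a narrow margin, SOCS1 stand above the other 3 libraries in gRNA2+dox, JAK1 and JAK2 lie at like levels throughout, and IRF8 is at 0.

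By that size, 2 of the 8 measured genes, SOCS1 and IRF1, were higher in gRNA2+dox than in gRNA2, and 0 were lower. The background was 4.86% of 15204 tested genes higher and 7.04% lower, or 0.448% higher among the 8475 genes with a mean of at least 300 reads, a level that the 8 genes all reach. Against CTL+dox, 3 of the 8 were higher (IRF1, IRF7 and IRF9), with a background of 6.78% higher and 8.86% lower, or 1.6% higher among genes with a mean of at least 300 reads. Against CTL, 1 of the 8 was higher, IRF1, where the background was 5.62% higher and 8.57% lower, or 0.909% higher among genes with that mean. IRF1 alone was higher than all 3 libraries by that size, as were 1.51% of the tested genes and 0.26% of those with a mean of at least 300 reads. With no size set, 8 of the 8 lay above each of the 3 other libraries, beside 23.8% of tested genes and 25.6% of those with that mean. After thinning to equal depth this count was 7, as JAK2 then had -0.01 against gRNA2. Over the 8 genes the median log2 ratio was 0.32 over gRNA2, 0.34 over CTL+dox and 0.37 over CTL, while the median over all tested genes was -0.02, 0.00 and 0.01. These comparisons share the gRNA2+dox library, so they are not independent of each other. Earlier results of these data were known when the genes were chosen, so these shares describe the set and do not test it.

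**Figure D2:**
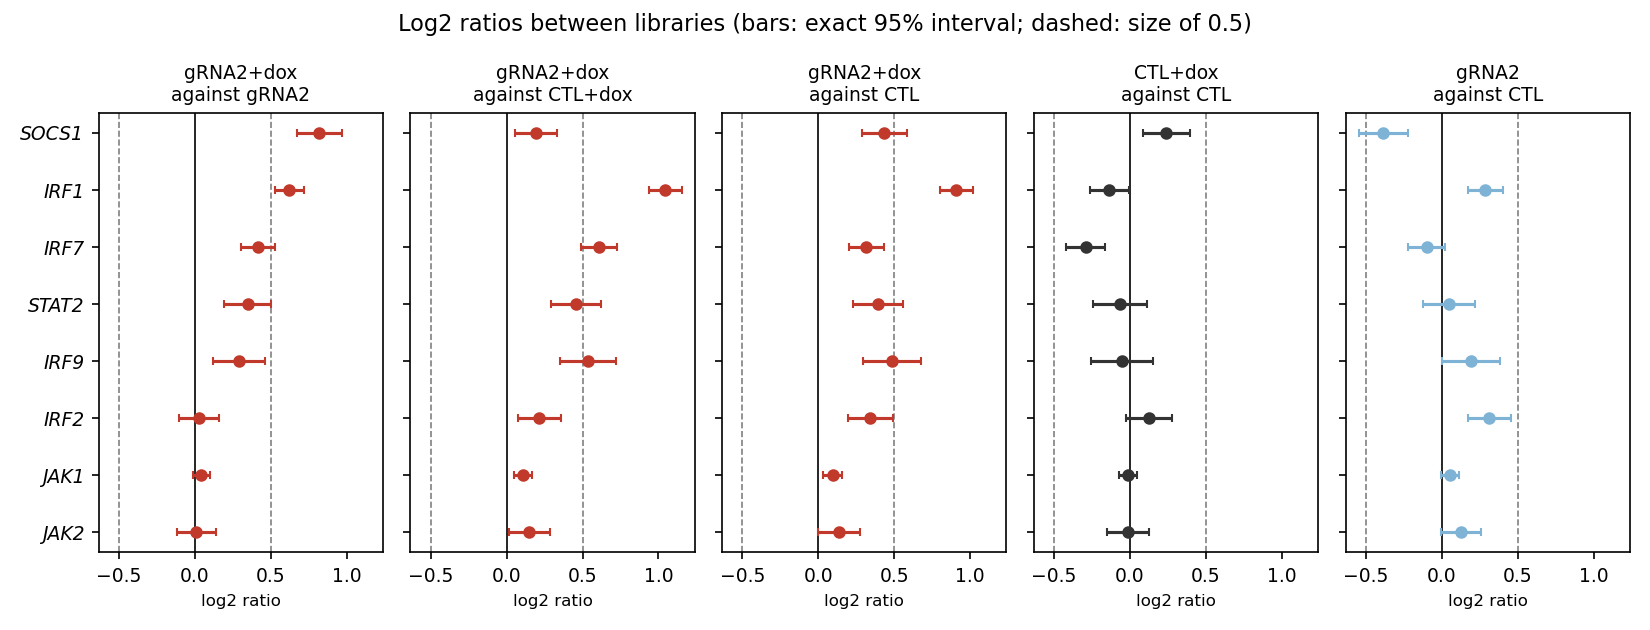
Log2 ratio of the 8 measured genes in each of the 5 comparisons, 1 panel a comparison, with exact 95% intervals from counting error. The solid line marks no difference and the dashed lines a size of 0.5. IRF1 lies past 0.5 in all 3 comparisons of gRNA2+dox, SOCS1 only in that with gRNA2, and no gene lies past it in CTL+dox or gRNA2 against CTL.

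The kinases come first in the chain. JAK1, which serves receptors of all 3 interferon types and lies on chromosome 1 of GRCh38.p14 from 64833229 to 65067746, had 4235, 4625, 5603 and 4833 reads. These were 207, 205, 215 and 221 CPM. For JAK1 the log2 ratio was 0.04 in gRNA2+dox against gRNA2, with an interval of -0.01 to 0.10. Its ratio to CTL+dox was 0.11 (interval 0.05 to 0.17). With this many reads the intervals leave out differences as large as the size of 0.5 between any of the compared libraries.

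JAK2, which works at the interferon gamma receptor, lies on chromosome 9 from 4984390 to 5129948. It had 794, 868, 1106 and 933 reads, or 38.9, 38.5, 42.5 and 42.7 CPM. Both gRNA2 libraries had slightly higher values than both CTL libraries, with overlapping intervals. In gRNA2+dox JAK2 had a log2 ratio of 0.01 to gRNA2 (interval -0.12 to 0.14) and of 0.15 to CTL+dox (0.01 to 0.28). TYK2, a kinase of the type I receptor and not among the 9 genes, had a log2 ratio of 0.01 against gRNA2. Its ratio was 0.26 against CTL+dox and 0.12 against CTL.

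STAT2 and IRF9 are subunits of ISGF3. STAT2, on chromosome 12 from 56341597 to 56360107, had 505, 533, 665 and 709 reads. Its level was 24.7, 23.7, 25.5 and 32.5 CPM. The first 3 libraries lay close together and gRNA2+dox above them. STAT2 had a log2 ratio of 0.35 over gRNA2 (interval 0.19 to 0.50), of 0.46 over CTL+dox (0.29 to 0.62) and of 0.39 over CTL (0.23 to 0.56). None of these passed 0.5.

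IRF9, the subunit of ISGF3 that recognises DNA, lies on chromosome 14 from 24161265 to 24166565. It had 384, 409, 560 and 575 reads, or 18.8, 18.2, 21.5 and 26.3 CPM. The gRNA2 library lay between the CTL libraries and gRNA2+dox. In gRNA2+dox the log2 ratio of IRF9 came to 0.29 over gRNA2 (interval 0.12 to 0.46), 0.54 over CTL+dox (0.35 to 0.72) and 0.49 over CTL (0.30 to 0.68). Reads of IRF9 per read of STAT2 were 0.760, 0.767, 0.842 and 0.811, with overlapping intervals.

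IRF1, a transcription factor first known for activating the interferon beta gene and a main carrier of the interferon gamma response, lies on chromosome 5 from 132481609 to 132490773. It had 1026, 1030, 1597 and 2059 reads. The levels were 50.2 CPM (interval 47.2 to 53.4), 45.7 (43.0 to 48.6), 61.3 (58.3 to 64.4) and 94.3 (90.2 to 98.4). The gRNA2+dox library was the highest, and gRNA2 without doxycycline already lay above both CTL libraries. For IRF1 the log2 ratio of gRNA2+dox was 0.62 over gRNA2 (interval 0.53 to 0.72), 1.04 over CTL+dox (0.94 to 1.15) and 0.91 over CTL (0.80 to 1.02), or 1.54-fold, 2.06-fold and 1.88-fold. In gRNA2 against CTL it was 0.29 (0.17 to 0.40). Ranked from the highest, IRF1 was number 24 of the 8475 genes with a mean of at least 300 reads in gRNA2+dox against gRNA2, number 10 against CTL+dox and number 20 against CTL. Cutoffs were also adapted from those the study gave for lower genes, and applied in both directions. They were a log2 ratio past 1 with a 1% counting bound past 0.5, the bound in place of the study's tool GFOLD. These cutoffs were passed by IRF1 against CTL+dox only, as by 0.454% of tested genes in that direction. Of the 8 genes 0 met them against gRNA2 (background 0.257%), against CTL (0.408%) and against all 3 libraries at once (0.158%).

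IRF2, the antagonist of IRF1, lies on chromosome 4 from 184387729 to 184474550. It had 652, 785, 1033 and 884 reads, or 31.9, 34.8, 39.7 and 40.5 CPM. The level was higher in both gRNA2 libraries than in CTL, with a log2 ratio of 0.31 in gRNA2 against CTL (interval 0.17 to 0.46). The ratio of gRNA2+dox to gRNA2 was 0.03 (interval -0.10 to 0.16). Reads of IRF1 per read of IRF2, a ratio within a library that no scaling between libraries can move, were 1.57, 1.31, 1.55 and 2.33. The interval in gRNA2+dox, 2.15 to 2.52, lay above those of the other libraries, the highest of which ended at 1.74.

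**Figure D3:**
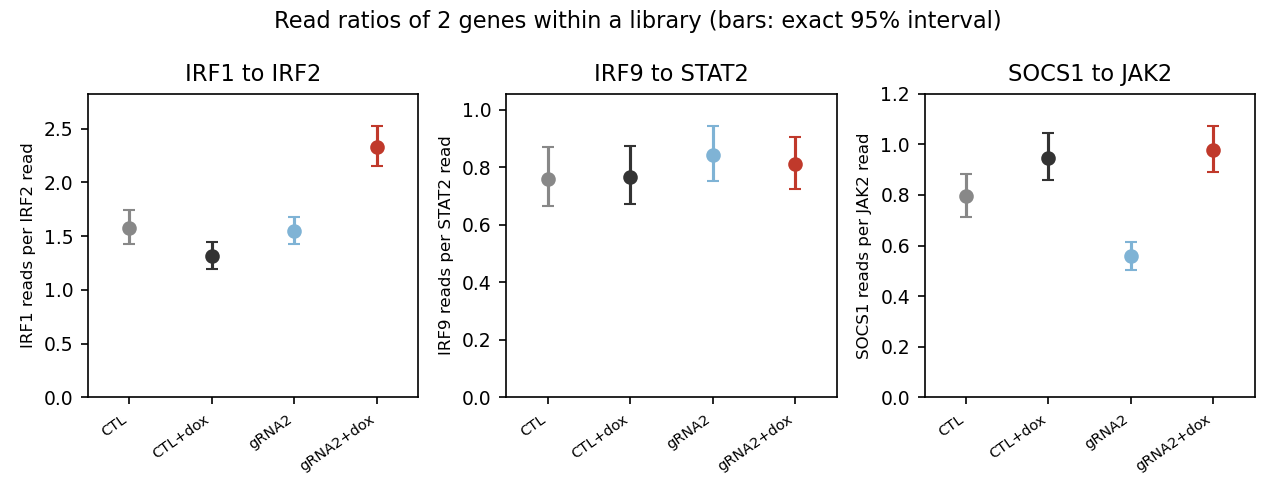
Reads of 1 gene per read of another within each library, for IRF1 to IRF2, IRF9 to STAT2 and SOCS1 to JAK2, with exact 95% intervals and linear axes that start at 0. IRF1 to IRF2 is highest in gRNA2+dox, IRF9 to STAT2 lies within overlapping intervals throughout, and SOCS1 to JAK2 is alike in gRNA2+dox and CTL+dox and lowest in gRNA2. The pairs were chosen after the levels were seen.

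IRF7, the factor that amplifies type I interferon production, lies on chromosome 11 from 612555 to 615950. It had 1057, 953, 1258 and 1407 reads, or 51.8, 42.3, 48.3 and 64.4 CPM. The lowest library was CTL+dox, not an untreated one. Set over gRNA2, IRF7 in gRNA2+dox had a log2 ratio of 0.42 (interval 0.30 to 0.53), over CTL+dox one of 0.61 (0.49 to 0.73) and over CTL one of 0.32 (0.20 to 0.43). In CTL+dox against CTL it was -0.29 (-0.42 to -0.16).

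IRF8, a factor of myeloid and B cells, lies on chromosome 16 from 85899162 to 85922609. It had 0 reads in each of the 4 libraries. A level of 3 counts, taken as the floor, is 0.147, 0.133, 0.115 and 0.137 CPM. The exact 95% intervals of the 0 counts reach a little higher, to 0.181, 0.164, 0.142 and 0.169 CPM. With no read, no ratio was computed for IRF8.

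SOCS1, which inhibits the Janus kinases directly, lies on chromosome 16 from 11254417 to 11256204. It had 631, 822, 616 and 912 reads. The levels were 30.9 CPM (interval 28.5 to 33.4), 36.5 (34.0 to 39.1), 23.6 (21.8 to 25.6) and 41.8 (39.1 to 44.6). Both doxycycline libraries lay above both untreated ones, and gRNA2 was the lowest. SOCS1 in gRNA2+dox had a log2 ratio of 0.82 over gRNA2 (interval 0.67 to 0.97), 1.77-fold, but of 0.19 over CTL+dox (0.06 to 0.33) and 0.43 over CTL (0.29 to 0.58). In gRNA2 against CTL it was -0.39 (-0.55 to -0.22). The size of the difference for SOCS1 therefore depended on which library served as the reference. Reads of SOCS1 per read of JAK2 were 0.795, 0.947, 0.557 and 0.977.

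Promoters were searched for GAS and ISRE, the elements that STAT dimers and ISGF3 bind. Those of IRF1, SOCS1 and IRF9 are shown because they held a match. RefSeq windows on GRCh38.p14 were found for 7 of the 9 genes, not for IRF2 and IRF7. The 250 bases before each start were searched for GAS as TTCNNNGAA, which reads alike on both strands. ISRE was searched for as GAAA, any 2 bases and GAAA again, or the reverse complement of this. The motifs do not overlap in the windows printed. Capitals mark the matches, and each sequence is written 5′ to 3′ on the gene's own strand, with the IRF1 window at chr5:132490774-132491023 (reverse strand), the SOCS1 window at chr16:11256205-11256454 (reverse strand) and the IRF9 window at chr14:24161015-24161264 (forward strand).
IRF1: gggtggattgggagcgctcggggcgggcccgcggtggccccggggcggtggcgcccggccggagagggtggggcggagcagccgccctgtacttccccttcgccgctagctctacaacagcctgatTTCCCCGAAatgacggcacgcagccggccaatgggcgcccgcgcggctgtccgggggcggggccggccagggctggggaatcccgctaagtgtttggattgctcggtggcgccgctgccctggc
SOCS1: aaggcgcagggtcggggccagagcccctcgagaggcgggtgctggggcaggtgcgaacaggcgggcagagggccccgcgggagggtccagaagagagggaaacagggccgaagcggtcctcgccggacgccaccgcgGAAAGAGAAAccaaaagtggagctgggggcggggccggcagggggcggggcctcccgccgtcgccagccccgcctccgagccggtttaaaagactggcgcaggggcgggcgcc
IRF9: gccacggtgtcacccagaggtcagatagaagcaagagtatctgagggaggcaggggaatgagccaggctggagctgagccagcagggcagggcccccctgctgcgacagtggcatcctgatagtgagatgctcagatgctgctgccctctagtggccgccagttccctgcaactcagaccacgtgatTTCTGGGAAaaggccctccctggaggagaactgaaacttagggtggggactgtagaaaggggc

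The IRF1 window held 1 GAS match, TTCCCCGAA, from 124 to 116 bases before the start. The IRF9 window held 1 GAS match, TTCTGGGAA, from 63 to 55 bases before it. The SOCS1 window held 1 ISRE match, GAAAGAGAAA, from 113 to 104 bases before it. The windows of STAT2, JAK1, JAK2 and IRF8 held neither. The IRF8 windows lay inside the gene, between 85902580 and 85903014, past its listed start at 85899162. The bases before that start of IRF8 were therefore not searched. Of 35116 RefSeq windows of 250 bases, 6.57% held a GAS match and 3.02% an ISRE match, so a match is a description of the letters and not a site shown to be bound.

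Per length of the canonical transcript, JAK1 was the most abundant of the 9 genes, at 40.3 to 43.5 RPKM, the CPM divided by transcript length in kilobases. SOCS1 (19.1 to 33.7 RPKM) and IRF7 (22.0 to 33.5 RPKM) came next and overlapped across libraries. IRF2 (14.1 to 17.9 RPKM), IRF1 (12.9 to 26.5 RPKM) and IRF9 (11.2 to 16.2 RPKM) followed, again with overlapping ranges. JAK2 (5.49 to 6.08 RPKM) and STAT2 (5.37 to 7.37 RPKM) were the lowest genes with reads and cannot be ordered. In CTL, IRF1 and IRF2 both stood at 14.1 RPKM, whereas in gRNA2+dox IRF1 stood at 26.5 and IRF2 at 17.9 RPKM.

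The CTL libraries with and without doxycycline did not differ past the size of 0.5 for any of these genes. TCOF1 itself was lower in CTL+dox, at -0.58 against CTL. In CTL+dox against CTL, 0 of the 8 genes passed it in either direction (background 4.86% higher and 5.77% lower, or 0.0944% higher among genes with a mean of at least 300 reads), with a median log2 ratio of -0.03 and a range from -0.29 for IRF7 to 0.24 for SOCS1. In gRNA2 against CTL, both untreated, 0 of the 8 passed it (background 5.41% higher and 6.37% lower, or 0.307% higher with that mean), with a range from -0.39 for SOCS1 to 0.31 for IRF2.

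The ratio with doxycycline in the gRNA2 cells was then set against that in the CTL cells. The difference of the log2 ratios was 0.76 for IRF1 (counting SE 0.08), 0.71 for IRF7 (SE 0.09) and 0.58 for SOCS1 (SE 0.11). These 3 of 8 genes exceeded 0.5, as did 7.90% of all tested genes and 0.696% of those with a mean of at least 300 reads. For STAT2 the difference was 0.41 (SE 0.12) and for IRF9 0.34 (SE 0.13). For IRF2 it was -0.10 (interval -0.29 to 0.10), for JAK1 0.06 (-0.03 to 0.14) and for JAK2 0.02 (-0.17 to 0.21). Part of the difference for IRF7 lay in the CTL cells, where the level was lower with doxycycline.

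**Figure D4:**
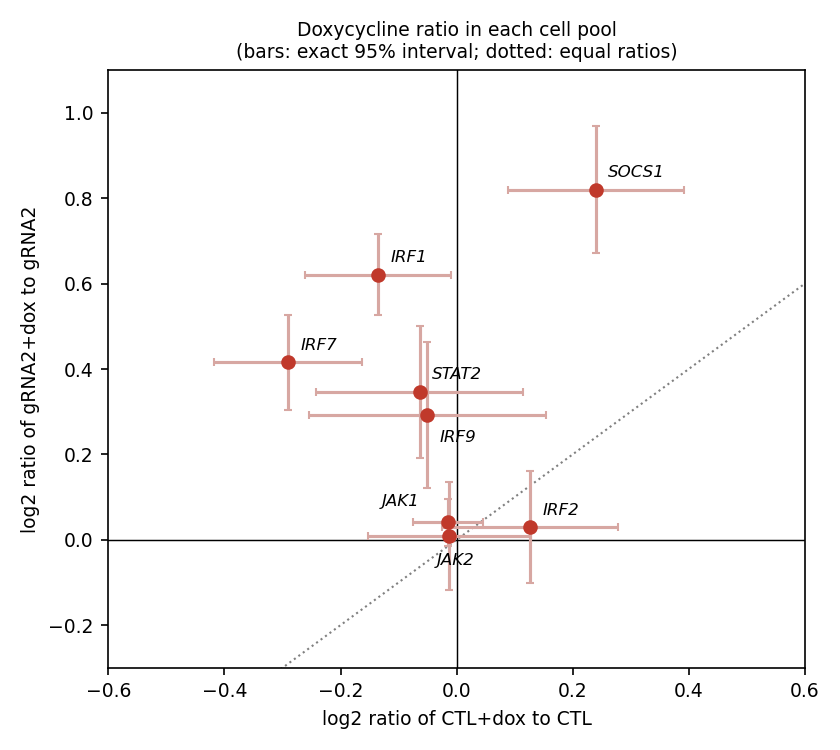
Log2 ratio with doxycycline in the CTL cells (horizontal axis) and in the gRNA2 cells (vertical axis) for the 8 measured genes, with exact 95% intervals from counting error. The dotted line marks equal ratios. SOCS1, IRF1, IRF7, STAT2 and IRF9 lie above it, and IRF2, JAK1 and JAK2 lie near it.

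The other genes of the pathway were read from lists by role, chosen with earlier results of these data known. Of 9 interferon genes listed as ligands, only IFNL1 reached 10 reads in any library, with 7, 5, 15 and 8 reads. IFNB1 had 1 to 3 reads, and IFNG at most 1 read in any library. A difference between libraries was not detectable for these at this depth. Of the 6 receptor chains, 0 passed the size of 0.5 in gRNA2+dox against gRNA2 (background 4.86% higher and 7.04% lower). Their log2 ratios ran from -0.13 for IFNAR2 to 0.22 for IFNGR2, a chain of the interferon gamma receptor.

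Of 11 other STAT, JAK and IRF genes, 1 was higher and 0 were lower in gRNA2+dox than in gRNA2, where the background was 4.86% higher and 7.04% lower. That gene was STAT4, a factor better known from lymphocytes, with 60, 64, 81 and 104 reads and a log2 ratio of 0.61 (interval 0.18 to 1.05). STAT3 had a log2 ratio of -0.02, and IRF3, which acts without prior induction, 0.04.

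Of 15 further inhibitors and corepressors, 1 was higher and 0 were lower in the same comparison, a share of 6.67% beside the background of 4.86%. That gene was SOCS3, which restrains cytokine receptors of the gp130 family, with 1488, 1871, 2425 and 3179 reads. SOCS3 had a log2 ratio of 0.64 against gRNA2 and 0.998 against CTL. USP18, which binds the type I receptor and blocks it, had 0.08 against gRNA2, and IRF2BPL, of the family that partners IRF2, had 0.33.

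Of 22 genes listed as targets of ISGF3, 7 were higher and 1 lower in gRNA2+dox than in gRNA2 (background 4.86% and 7.04%), with a median log2 ratio of 0.36 beside -0.02 over all tested genes. The highest was IFI44L at 3.11, on 2, 0, 2 and 18 reads, then IFIT3 at 1.58 and IFIT2 at 1.57. The gene past 0.5 on the lower side was MX2, at -1.06 on 8, 8, 18 and 7 reads, with an interval of -2.61 to 0.22. OAS1 had -0.06 and RSAD2 0.12. Of 19 genes listed as targets of IRF1 and interferon gamma, 13 were higher and 0 lower, with a median of 0.70. The chemokines CXCL10, at 3.16 on 24, 45, 27 and 206 reads, and CXCL9, at 2.28, came first, followed by the guanylate-binding proteins GBP4 at 1.79 and GBP5 at 1.69. TAP2, a peptide transporter of antigen presentation, had 0.23. In CTL+dox against CTL the medians of the target lists were 0.00 and 0.05, with 1 gene higher in each list and 2 and 1 lower (background 4.86% higher and 5.77% lower). In gRNA2 against CTL they were 0.05 and 0.27, with 2 genes higher in each (background 5.41%). Both target lists were chosen with earlier results of these data known, so their shares describe the lists and are no independent test.

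**Figure D5:**
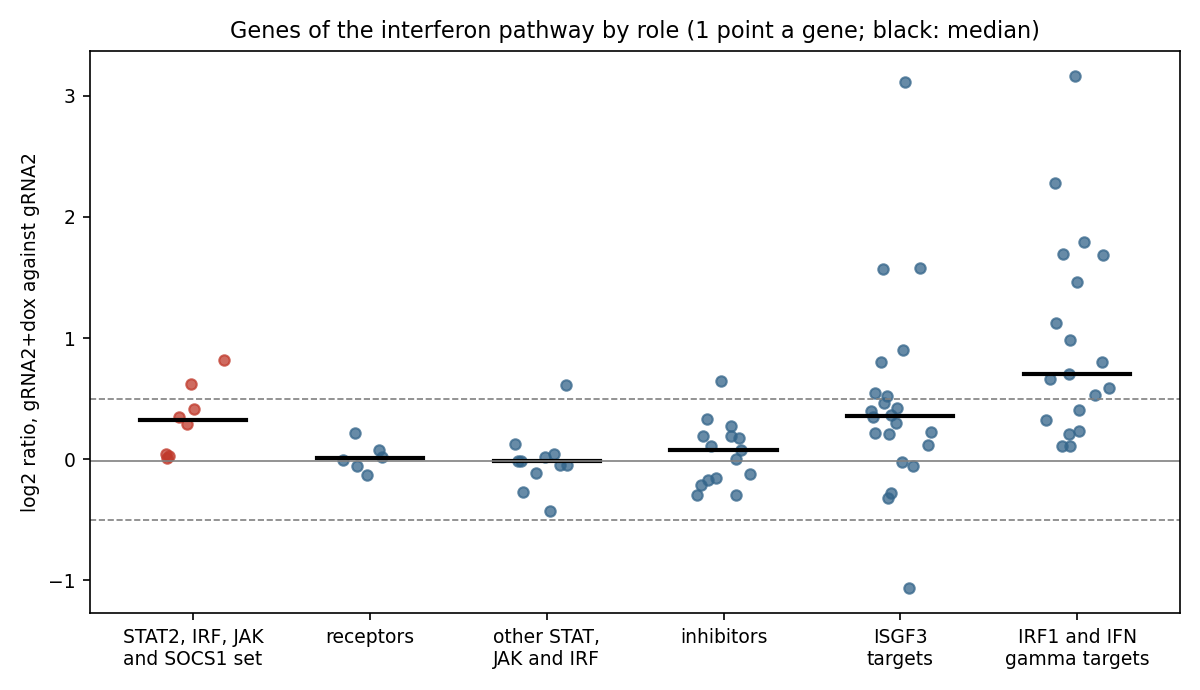
Log2 ratio of gRNA2+dox to gRNA2 for the pathway genes with at least 10 reads in 1 library, grouped by role, 1 point a gene. Black bars are list medians, the grey line is the median of all tested genes and dashed lines mark a size of 0.5. Receptors stay between the dashed lines, and the targets of IRF1 and interferon gamma have the highest median, 0.70.

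The genes whose pattern over the 4 libraries was nearest to that of IRF1, by Euclidean distance of centred log2 CPM among 10532 genes with at least 100 reads in each library, were PSMB10 at 0.06, APOL3 at 0.14 and IL18BP at 0.15. PSMB10, also among the listed targets of IRF1 and interferon gamma, encodes a subunit of the immunoproteasome and IL18BP a secreted inhibitor of interleukin 18. PSMB10 had 213, 224, 336 and 424 reads. Its log2 ratios of gRNA2+dox to gRNA2, to CTL+dox and to CTL were 0.59, 0.96 and 0.89, beside 0.62, 1.04 and 0.91 for IRF1. Nearest to SOCS1 were TRPM2 at 0.16, a calcium channel, C8orf82 at 0.18, and IPO5P1 at 0.20, a pseudogene. Reads of IPO5P1 that also map to its parent gene are not in its count, as only reads that map to 1 place were kept. These distances describe 4 libraries only.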

How the data were processed

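The authors trimmed adaptors with fastp, aligned reads with STAR and deposited unnormalized counts of reads per gene symbol. The submitters' processing notes name hg38 (the STAR version and annotation are not given in the sources used here). STAR keeps reads that map to 1 place and sets aside those of overlapping genes. The unstranded column was used, and lines that sum unassigned reads, 19.0% to 20.3% of a library, were left out of library sizes.

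Library sizes were scaled by TMM over all genes (edgeR 4.0.16, R 4.3.3). Log2 ratios used a prior count of 0.5. The 15204 genes that reached 10 counts in any library were compared. Intervals are exact 95% Poisson (levels) or Clopper-Pearson (ratios) intervals, computed with scipy 1.17.1, and cover counting error only; reads are not independent molecules. GFOLD, the study's tool, was replaced by a 1% lower bound of the log2 ratio from Poisson counting error. With 1 library per group no test across replicates was possible and no p-value is given.

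The 9 genes and all gene lists were chosen with earlier results of these data known. Named genes are the 9, TCOF1, genes of the other role lists past 0.5 in gRNA2+dox against gRNA2, up to 4 genes of each list with the largest ratios in size whether or not past 0.5, and the 3 nearest patterns of IRF1 and SOCS1. IFNB1, IFNG, TYK2, STAT3, IRF3, USP18, OAS1, RSAD2, TAP2 and the pairs for read ratios were chosen after their values were seen. Transcript lengths are those of Ensembl canonical transcripts of GENCODE 44 lifted to GRCh37, matched by symbol and used for RPKM only, never with coordinates. Positions and promoters come from RefSeq on GRCh38.p14. Some genes of the lists are not reported here.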

Additional observations from a re-analysis of the deposited data

Results flagged for a closer look

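The log2 ratio with doxycycline had opposite signs in the gRNA2 cells and the CTL cells for 6 of the 8 measured genes, which brings them to attention here; with 1 library per group the difference was not tested across replicates. Opposite signs were also found for 43.9% of all tested genes and 39.6% of those with a mean of at least 300 reads, so the sign alone sets little apart. The difference of the ratios was 0.76 for IRF1, from 0.62 with the gRNA2 guide and -0.14 with the control. For IRF7 it was 0.71, from 0.42 and -0.29. For STAT2 it was 0.41, from 0.35 and -0.06, and for IRF9 0.34, from 0.29 and -0.05, where the intervals in the CTL cells include 0. For JAK1 (0.06) and JAK2 (0.02) the ratios lay near 0 in both kinds of cells, and the intervals of the difference include 0.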

How the results depend on the processing

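No paired analysis was possible because each group has 1 library, and for the same reason no replicate could be left out. The counts of genes past the size of 0.5 were alike with scaling by DESeq2 1.42.0 or by totals alone and after thinning to equal depth. They were also alike with 5 as prior count and with both strand columns summed. This held for all 5 comparisons, for gRNA2+dox against each of the 3 others and for the difference of the doxycycline ratios. It also held, where run, with the interval required to leave out 0 and with a coefficient of variation of 0.1 added. Dropping the filter or setting it at 50 counts left scaling and ratios of the measured genes unchanged, so these counts could not move. With the other 3 libraries pooled, 1 gene passed, IRF1, at 0.83. Under the cutoffs adapted from the study the count became 0 of 8 in gRNA2+dox against gRNA2, in place of 2. Against CTL+dox it was 1 in place of 3. It was 0 in place of 1 both against CTL and against each of the 3 others, since these cutoffs ask for a larger ratio. All of the 371 other values recomputed stayed within their counting interval or, for counts, within 1.5 times. Among them, the ratios under the filter settings were the same as the main ones by construction. Depth limits the ligands and IRF8, while variation between cultures was not measured for any gene.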
